A study of Mus musculus with 23 samples.

Results

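Transcripts of 9 genes of oxygen-inserting, epoxide-opening, alcohol-oxidising and aldehyde-oxidising enzymes were followed in mouse liver. They were the flavin-containing monooxygenases Fmo1, Fmo2, Fmo4 and Fmo5, the epoxide hydrolases Ephx1 and Ephx2, the alcohol dehydrogenases Adh1 and Adh4, and the aldehyde oxidase Aox3. Members were the probes that the array files name for these genes, 20 of 56605 probes. Of these, 17 passed the filter on dim signals, and all 9 genes were measured among 21056 genes. Liver RNA came from 23 male mice on the C57Bl6/J background, with 1 Agilent 1-colour array per mouse. The animals were wild-type (WT) or Pxr-/-, and each genotype was injected intraperitoneally every day for 4 days. The agent was pregnenolone 16α-carbonitrile (PCN) at 100 mg/kg in corn oil, or corn oil alone in the controls (CONT). Livers were collected in the light phase, at ZT6, with the final injection given 6 h earlier. The labels call the mice fed at that time, whereas the study's text calls them semi-fasted. The CONT groups held 6 WT and 6 Pxr-/- mice, and the PCN groups 5 WT and 6 Pxr-/- mice. A further WT PCN mouse that the labels describe is not analysed here. WT animals were bought at 6 weeks of age and acclimatized for 2 weeks, whereas the Pxr-/- line was bred in the facility and its age is not given in the sources used here. Genotype and colony therefore cannot be told apart, and in whole liver fewer cells of a type and less RNA per cell cannot be told apart either.

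PXR, encoded by Nr1i2, is a nuclear receptor that binds foreign compounds and steroids and switches on genes of drug handling in the liver. PCN is a ligand of the rodent receptor. Flavin-containing monooxygenases put an oxygen atom on nitrogen and sulphur atoms of drugs and dietary compounds, with NADPH as the electron donor. Epoxide hydrolases add water to the reactive epoxides that other oxidases make. Alcohol dehydrogenases turn ethanol, retinol and other alcohols into aldehydes, and aldehyde oxidases, which carry a molybdenum cofactor, turn aldehydes into acids and oxidise nitrogen-containing rings.

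PXR pairs with the receptor RXR on repeats of a short half-site, so the promoters of the genes whose change passed the test are shown for the 2 of them with an entry in the RefSeq promoter table (GRCm38.p6). Each runs from 250 bases before to 50 bases after the start of transcription, 5′ to 3′ on the strand of the gene. The half-sites AGTTCA and AGGTCA were searched on both strands, and capitals mark every match. The Ephx1 promoter lies on the minus strand at chr1:181017520-181017819, and the Adh4 promoter on the plus strand at chr3:138415247-138415546.
Ephx1: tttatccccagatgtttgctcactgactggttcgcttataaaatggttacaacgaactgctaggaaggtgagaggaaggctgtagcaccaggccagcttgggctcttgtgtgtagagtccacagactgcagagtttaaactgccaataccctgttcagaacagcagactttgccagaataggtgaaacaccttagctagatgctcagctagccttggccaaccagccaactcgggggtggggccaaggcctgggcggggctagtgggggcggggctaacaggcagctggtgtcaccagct
Adh4: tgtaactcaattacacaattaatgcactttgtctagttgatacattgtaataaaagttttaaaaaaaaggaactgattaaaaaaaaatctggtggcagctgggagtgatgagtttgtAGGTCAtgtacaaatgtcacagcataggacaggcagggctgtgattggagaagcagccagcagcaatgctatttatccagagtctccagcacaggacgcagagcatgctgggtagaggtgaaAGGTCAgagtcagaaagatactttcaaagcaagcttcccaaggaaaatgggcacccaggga
The Adh4 promoter held AGGTCA at 2 places, starting 133 and 11 bases before the start of transcription, and the Ephx1 promoter held neither half-site. Promoter entries existed for 7 of the 9 genes, 8 entries in all because Fmo2 had 2. Apart from Adh4, single AGGTCA matches were found in the Fmo4 promoter and in 1 of the Fmo2 promoters, and none in those of Fmo5, Adh1 and Aox3. Of 32851 promoters of 300 bases in the table, 16.3% held AGGTCA, 14.0% held AGTTCA and 27.7% held either. Pairs of AGNTCA in the same direction with 4 bases between them were present in 0.125% of all promoters, pairs with 3 bases between them in 0.07%, and neither was present in any promoter of the members. These are matches of letters in a short window.

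An array had 29510 to 33321 probes well above background. The mean log2 signal of the kept probes, before arrays were normalized, spanned 8.30 to 8.63 in WT CONT and 8.53 to 8.77 in WT PCN mice. It spanned 8.25 to 8.60 in Pxr-/- CONT and 8.32 to 8.51 in Pxr-/- PCN mice. The Pxr-/- PCN arrays thus all lay below the WT PCN arrays in brightness. Arrays were normalized, so changes are relative to the whole array. The Nr1i2 probe gave log2 signals of 10.63 to 12.15 in WT CONT, 11.78 to 12.46 in WT PCN, 10.16 to 12.08 in Pxr-/- CONT and 11.05 to 12.41 in Pxr-/- PCN. It did not separate the genotypes (Pxr-/- CONT minus WT CONT -0.03, limma adjusted p = 0.977), and whether it lies in the deleted segment is not given in the sources used here. Cyp3a11, a PXR target of drug oxidation, rose by a log2 change of 3.55 with PCN in WT mice (adjusted p = 4.12e-10), against 0.31 (adjusted p = 0.431) in Pxr-/- mice. Cyp2c55, another such target, rose by 6.26 in WT mice (adjusted p = 4.89e-14), against 0.54 (adjusted p = 0.14) in Pxr-/- mice. The genotypes did not start from the same level of Cyp2c55. Without PCN it was higher in Pxr-/- than in WT mice by 2.80 (limma adjusted p = 1.53e-07), with no overlap. For Cyp3a11 that difference was 0.69 (adjusted p = 0.199). Markers of other liver cell types were also read. PCN raised 2 of 7 stellate cell markers in both genotypes. These were Col1a1, by a log2 change of 3.17 in WT and 1.96 in Pxr-/- mice, and Col3a1, by 2.18 and 1.22. PCN also raised 1 of 5 cholangiocyte markers in WT mice and 1 of 8 hepatocyte markers in Pxr-/- mice. No Kupffer cell, endothelial, lymphocyte or blood marker passed the test. Of all genes, 3.79% were raised in WT and 1.42% in Pxr-/- mice. Between the genotypes with PCN, the cholangiocyte marker Sox9 was lower in Pxr-/- mice (-0.76, adjusted p = 0.0279) and the hepatocyte marker Tat higher (0.73, adjusted p = 0.0436). The means without PCN differed in the same directions, with neither called. They were 7.39 in WT and 6.76 in Pxr-/- mice for Sox9, and 14.57 and 14.96 for Tat. The summed log2 signal of 8 hepatocyte markers spanned 20.32 to 20.55 in WT CONT and 20.28 to 20.37 in WT PCN mice, and 20.37 to 20.47 over both Pxr-/- groups. In WT mice the stellate sum spanned 14.46 to 15.17 in CONT and 14.89 to 15.32 with PCN. Its brightest marker was Dcn, with means of 14.37 and 14.35 in these groups. The median cholangiocyte sum was 11.58 in WT CONT and 12.22 in WT PCN mice, and 11.02 and 11.77 in the Pxr-/- groups. Its ranges overlapped, 10.495 to 12.20 and 11.68 to 12.96 in WT, and 10.80 to 11.70 and 11.13 to 12.51 in Pxr-/- mice. The part of these cell markers and of array brightness in the results that follow was not tested.

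All changes below are differences in normalized log2 signal from 1 limma fit over all 23 arrays, given with their standard error (SE). A gene was called at a Benjamini-Hochberg adjusted p of at most 0.05, over all probes tested, together with a fold change above 1.5. It was read from its brightest kept probe. In WT mice PCN raised 1 of the 9 genes, Ephx1, and lowered 2, Ephx2 and Adh4. Over all genes 3.79% were called higher and 2.39% lower in that comparison, against 11.1% and 22.2% of the 9 members, shares that rest on 1 and 2 genes. The members were chosen with earlier results of these data known, so these shares are no test of an excess. The median change of the members was -0.22, against -0.02 over all genes. Ephx1, Ephx2 and Adh4 each had only 1 probe on the array, so no second probe could be set beside these calls. In Pxr-/- mice none of the 9 genes was called with PCN, where 1.42% of all genes were called higher and 0.86% lower. By limma's unadjusted p, 4 members (Fmo1, Adh1, Adh4 and Aox3) were under 0.05 there. The share of all genes under that unadjusted limit was not counted, here or below, so such counts cannot be set against a background.

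**Figure D1:**
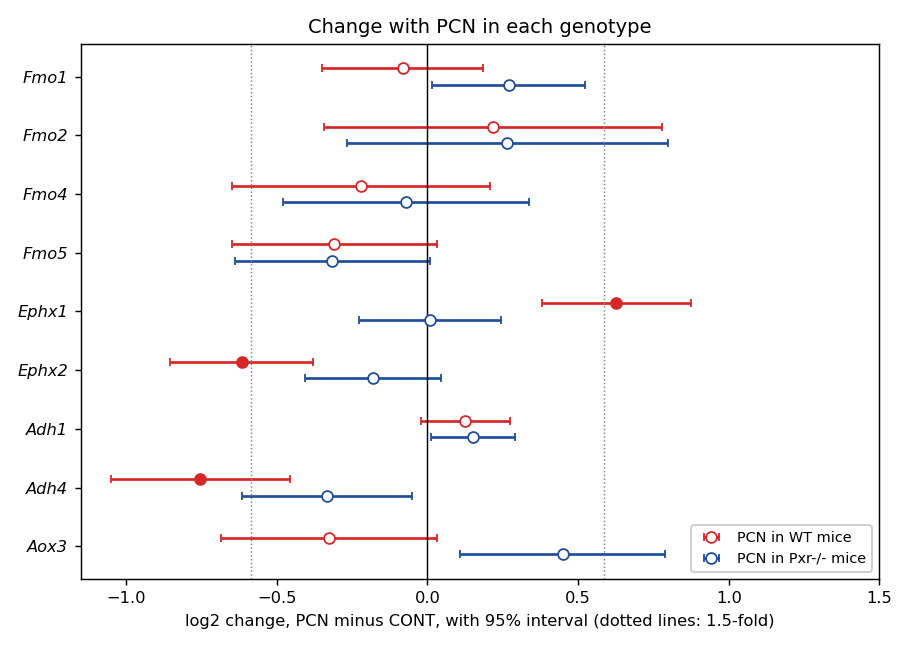
Log2 change with PCN (x axis, PCN minus CONT) of the 9 genes in WT mice (red, 6 CONT and 5 PCN arrays) and Pxr-/- mice (blue, 6 and 6 arrays). Bars are 95% intervals of the limma fit, filled points passed the test, and dotted lines mark 1.5-fold. Ephx1 stands at 0.63 in WT and 0.01 in Pxr-/- mice, and the WT points of Ephx2 and Adh4 lie to the left of their Pxr-/- points.

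Ephx1 encodes the microsomal epoxide hydrolase, which sits in the endoplasmic reticulum and turns epoxides of aromatic compounds into dihydrodiols. Its probe lay on chromosome 1 at 182919689 to 182919748 (mm9, the build of the array files) and was well above background on every array. The log2 signals were 16.43, 16.87, 16.65, 16.86 and 16.70 in the 5 WT PCN mice. In WT CONT mice the lowest was 15.80, the median 16.03 and the highest 16.65, in Pxr-/- CONT mice 15.75, 15.94 and 16.14, and in Pxr-/- PCN mice 15.80, 15.93 and 16.17. WT PCN stood above the other groups, with 1 WT CONT mouse, replicate 2, reaching into its range. The next WT CONT value was 16.15.

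PCN raised Ephx1 in WT mice by 0.63 (SE 0.12, adjusted p = 0.000718), a 1.545-fold change just past the fold limit. It fell under that limit without WT CONT replicate 1 (0.58, adjusted p = 0.0027) and without WT CONT replicate 6 (0.58, adjusted p = 0.00191). In Pxr-/- mice the change was 0.01 (95% interval -0.23 to 0.24, adjusted p = 0.98). With PCN in both genotypes, Pxr-/- mice lay below WT mice by a log2 difference of -0.75 (SE 0.12, adjusted p = 0.000493), and these 2 groups did not overlap. Ephx1 was the only member called in that comparison, in which 0.731% of all genes were called higher and 1.36% lower. Without PCN the genotypes differed by -0.13 (adjusted p = 0.702). The test of the difference between the PCN effects, the interaction, gave 0.62 (SE 0.16, adjusted p = 0.0654) and was not called. The interaction was called without WT CONT replicate 2 (0.72, adjusted p = 0.00556), without WT PCN replicate 1 (0.67, adjusted p = 0.0422) and without Pxr-/- CONT replicate 3 (0.68, adjusted p = 0.0437). In washing batch 1 the WT change was 0.73 (adjusted p = 0.00687) and in washing batch 2, with 3 CONT and 2 PCN arrays, 0.52 (adjusted p = 0.146).

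Ephx2 encodes the soluble epoxide hydrolase, which turns epoxides of fatty acids into diols, and its transcript is known to respond to ligands of PPARα, the receptor for fatty acids. The probe lay on chromosome 14 at 66703319 to 66703378. In WT PCN mice the log2 signals were 16.14, 15.85, 16.05, 15.38 and 16.10. The lowest, median and highest were 16.29, 16.51 and 16.76 in WT CONT mice, 16.08, 16.42 and 16.56 in Pxr-/- CONT mice, and 16.03, 16.21 and 16.30 in Pxr-/- PCN mice. All WT PCN values lay below all WT CONT values, and replicate 4 was the lowest of them, while the Pxr-/- groups overlapped.

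PCN lowered Ephx2 in WT mice by a log2 change of -0.62 (SE 0.11, adjusted p = 0.000598, 1.533-fold). In Pxr-/- mice the change was -0.18 (95% interval -0.41 to 0.05, adjusted p = 0.355). The difference between the genotypes was -0.44 (SE 0.16, adjusted p = 0.192) and did not pass the test. The WT change was -0.67 in washing batch 1 (adjusted p = 0.0315) and -0.56 in washing batch 2 (adjusted p = 0.0616). Without WT PCN replicate 4 it was -0.49 (adjusted p = 0.00114), without WT CONT replicate 4 it was -0.57 (adjusted p = 0.00156), and in the deposited normalized values it was -0.38 (adjusted p = 0.0241), all under the fold limit. Without WT PCN replicate 4, Ephx1 likewise fell under the limit (0.58, adjusted p = 0.0028), so that only Adh4 was called.

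**Figure D2:**
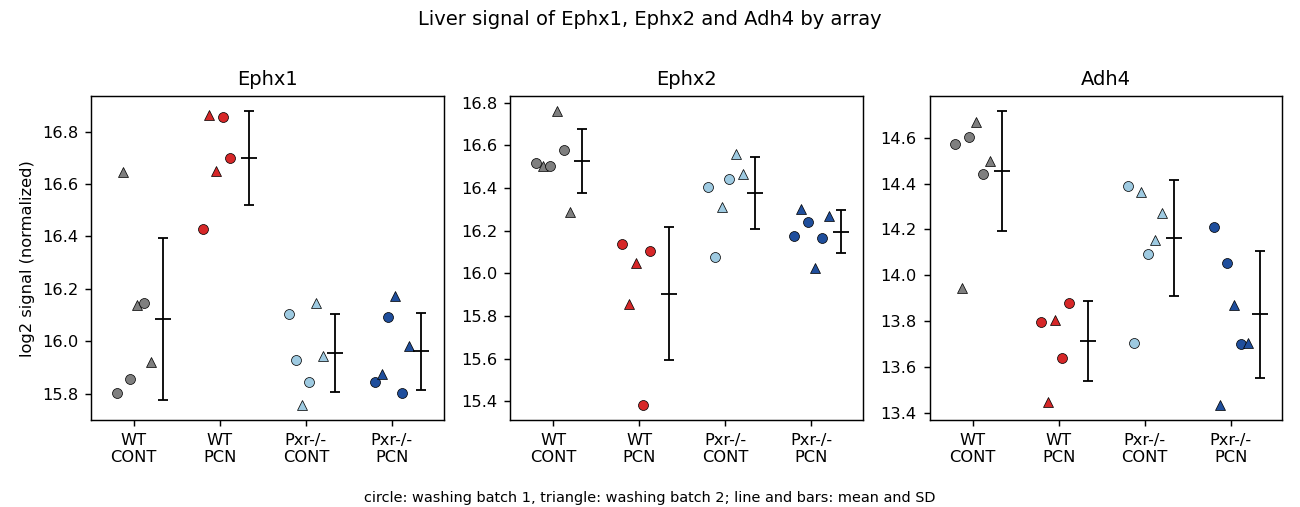
Normalized log2 signal (y axis) of Ephx1, Ephx2 and Adh4 on each of the 23 arrays by group, with circles for washing batch 1, triangles for washing batch 2, and a line and bars for the mean and SD. WT PCN mice lie between 16.43 and 16.87 for Ephx1, and lie below all WT CONT mice for Ephx2 and Adh4.

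Adh4 encodes a class II alcohol dehydrogenase of the liver, which acts on ethanol at high concentration and on retinol, and Adh1 the class I enzyme, which carries out most of the oxidation of ethanol there. The Adh4 probe lay on chromosome 3 at 138093716 to 138093775. Its log2 signals were 13.80, 13.44, 13.80, 13.64 and 13.88 in WT PCN mice. The lowest, median and highest were 13.94, 14.54 and 14.67 in WT CONT mice, 13.70, 14.21 and 14.39 in Pxr-/- CONT mice, and 13.43, 13.79 and 14.21 in Pxr-/- PCN mice. WT PCN lay wholly below WT CONT, by a margin set by WT CONT replicate 2. The Pxr-/- PCN mice covered the range of the WT PCN mice and reached above it.

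The change with PCN was -0.75 in WT mice (SE 0.14, adjusted p = 0.00069, 1.686-fold). In Pxr-/- mice Adh4 gave -0.33 (95% interval -0.62 to -0.05, adjusted p = 0.148). With a block for replicate number in the limma fit, that adjusted p was 0.0178, and the change stayed under the fold limit. The interaction was -0.42 (SE 0.20, adjusted p = 0.332), and neither genotype comparison was called, with -0.29 without PCN (adjusted p = 0.422) and 0.13 with PCN (adjusted p = 0.633). Within washing batches the WT change was -0.77 (adjusted p = 0.0143) and -0.74 (adjusted p = 0.0668), whereas in Pxr-/- mice it was -0.07 in batch 1 and -0.59 in batch 2. In the deposited values the WT change was -0.53 (adjusted p = 0.011), under the fold limit.

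Adh1 was read by 2 probes, and another, built on the clone AK082149 at 137945024 to 137945083 of chromosome 3, was well above background on 3 of 23 arrays and was set aside. The brighter probe, at 137952821 to 137952880, had a median intensity of 126800 and no spot marked as saturated. It gave log2 signals of 16.81 to 17.12 in WT CONT, 16.86 to 17.26 in WT PCN, 16.83 to 17.10 in Pxr-/- CONT and 16.83 to 17.25 in Pxr-/- PCN mice, and all 4 groups overlapped. Its change with PCN was 0.13 in WT (adjusted p = 0.213) and 0.15 in Pxr-/- mice (adjusted p = 0.193). The other probe, whose coordinates span 137943475 to 137945457, gave 0.36 in WT (SE 0.11, adjusted p = 0.0244) and 0.33 in Pxr-/- mice (SE 0.11, adjusted p = 0.0631). Both probes of Adh1 thus gave positive values in both genotypes, under the fold limit, and neither showed a difference between them (interaction -0.02 and 0.02, adjusted p = 0.945 and 0.964).

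Aox3, the main aldehyde oxidase of mouse liver, gave a log2 change below 0 with PCN in WT mice and above 0 in Pxr-/- mice. On its brightest probe, at 58245203 to 58245262 of chromosome 1, the log2 signals were 12.15, 11.60, 11.80, 11.65 and 12.01 in WT PCN mice. The lowest, median and highest were 11.90, 12.12 and 12.54 in WT CONT mice, 11.25, 11.67 and 12.38 in Pxr-/- CONT mice, and 11.66, 12.21 and 12.59 in Pxr-/- PCN mice. All pairs of groups overlapped. The high value among the Pxr-/- CONT mice was replicate 4, and the others there lay at 11.69 or below.

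The change with PCN was -0.33 in WT mice (SE 0.17, adjusted p = 0.184) and 0.45 in Pxr-/- mice (SE 0.16, adjusted p = 0.104). Neither Aox3 value passed the test, and the interaction, -0.78 (SE 0.24, adjusted p = 0.111), did not either. The other 2 Aox3 probes gave the same signs. The probe at 58228972 to 58229031 gave -0.49 in WT (adjusted p = 0.0368), 0.37 in Pxr-/- mice (adjusted p = 0.18) and an interaction of -0.86 (adjusted p = 0.0679). The probe at 58258277 to 58258336, built on the clone AK050061, gave -0.49 (adjusted p = 0.042), 0.37 (adjusted p = 0.186) and -0.86 (adjusted p = 0.0743), and on it WT PCN lay wholly below WT CONT. The 3 probes read RNA of the same mice and are not replicates.

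Without Pxr-/- CONT replicate 4, both the change of Aox3 in Pxr-/- mice (0.59, adjusted p = 0.0205) and the interaction (-0.91, adjusted p = 0.0301) were called. The washing batches differed in size of effect. The interaction was -0.30 in batch 1 (adjusted p = 0.72) and -1.30 in batch 2 (adjusted p = 0.0827), and the change in Pxr-/- mice was 0.08 and 0.82. Without PCN, Pxr-/- mice lay below WT mice by -0.45 on the brightest probe (adjusted p = 0.289). No member was called between the genotypes without PCN, where 0.228% of all genes were called higher and 0.0807% lower, and none in the interaction, where 0.807% were called higher and 0.242% lower. At called shares of this size, fewer than 1 of 9 genes would be called. An unadjusted limma p under 0.05 was given by 3 members between the genotypes without PCN (Fmo2, Adh4 and Aox3). With PCN it was given by 4 (Fmo1, Fmo2, Ephx1 and Ephx2), and for the interaction by 4 (Ephx1, Ephx2, Adh4 and Aox3). The called shares are no background for these unadjusted counts.

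**Figure D3:**
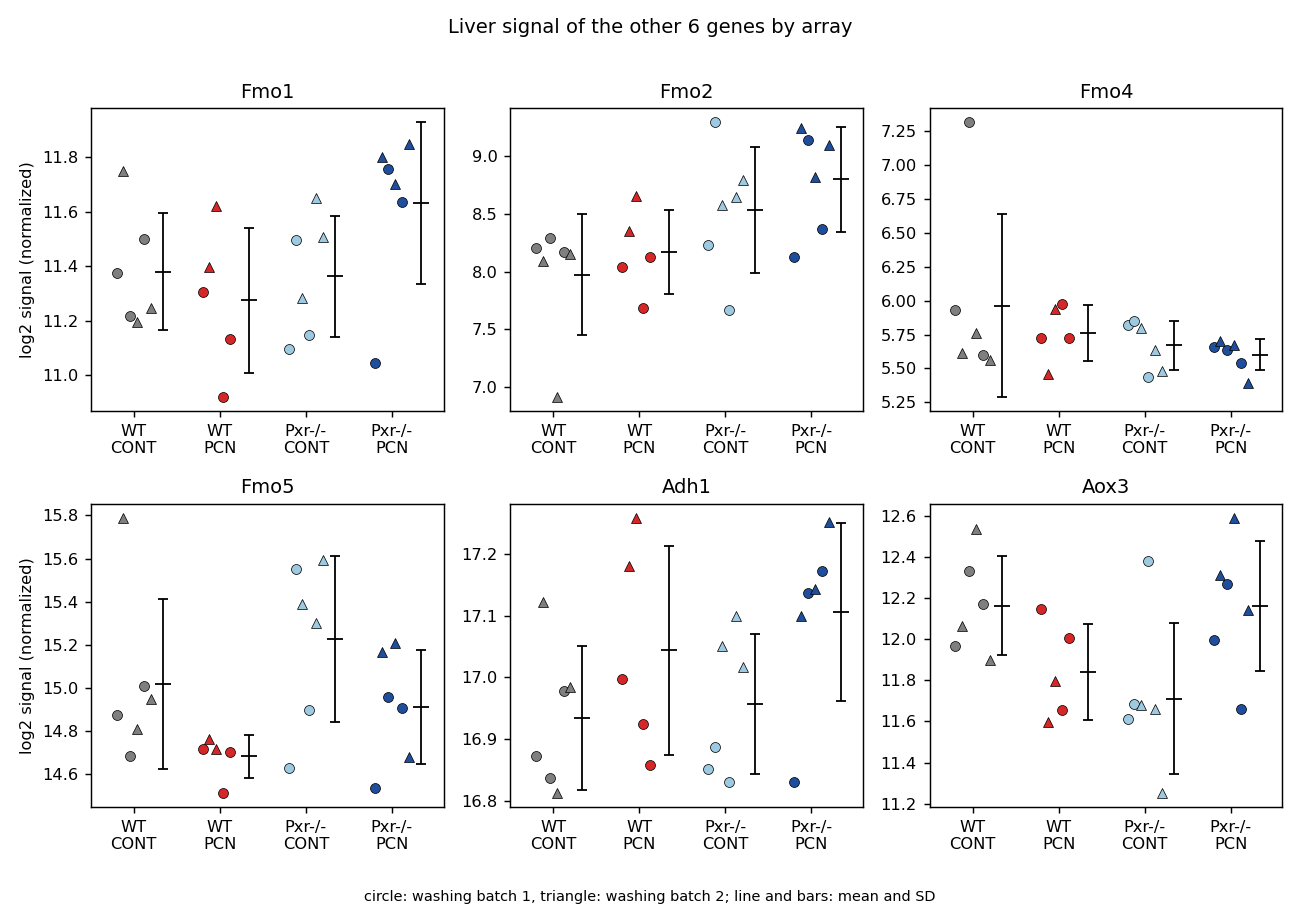
Normalized log2 signal (y axis) of Fmo1, Fmo2, Fmo4, Fmo5, Adh1 and Aox3 on each of the 23 arrays by group, with circles for washing batch 1, triangles for washing batch 2, and a line and bars for the mean and SD. The 4 groups overlap for each gene, and single mice stand apart for Fmo2 (6.91), Fmo4 (7.32) and Fmo5 (15.79) in WT CONT.

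Of the 4 Fmo genes none was called in any of the comparisons. Fmo1, Fmo2 and Fmo4 are neighbours on chromosome 1, where their probes lay between 164738476 and 164827931, and Fmo5 lies on chromosome 3. Fmo5, a form that inserts oxygen beside carbonyl groups and is a main Fmo of mouse liver, gave log2 signals of 14.72, 14.76, 14.72, 14.51 and 14.70 in WT PCN mice. In the other groups they spanned 14.69 to 15.79 in WT CONT, 14.63 to 15.59 in Pxr-/- CONT and 14.54 to 15.21 in Pxr-/- PCN. The WT PCN mice thus lay close together (SD 0.10) at the lower end of the WT CONT range (SD 0.39). The top of that range, and part of its SD, came from replicate 2 at 15.79, which stood far from the others by Dixon's test. The Fmo5 change with PCN was -0.31 in WT (SE 0.16, adjusted p = 0.186) and -0.32 in Pxr-/- mice (SE 0.16, adjusted p = 0.243), with an interaction of 0.01 (95% interval -0.46 to 0.48). A second Fmo5 probe, at 97457388 to 97457447, gave -0.15 and -0.42 (adjusted p = 0.605 and 0.152). With arrays left out in turn, the WT change on the brighter probe ran from -0.38 to -0.18.

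Fmo1, the form best known for oxidising tertiary amines, was read by 4 probes. On the brightest, at 164760037 to 164760096, WT PCN mice had log2 signals of 11.30, 11.40, 11.62, 10.92 and 11.13. The other groups spanned 11.20 to 11.75 in WT CONT, 11.10 to 11.65 in Pxr-/- CONT and 11.05 to 11.85 in Pxr-/- PCN. In the last group replicate 1 was the low one, and the other 5 mice lay at 11.63 or above. The change of Fmo1 with PCN was -0.08 in WT (adjusted p = 0.697) and 0.27 in Pxr-/- mice (adjusted p = 0.202), and the interaction was -0.35 (adjusted p = 0.379). With PCN in both genotypes, Pxr-/- mice lay higher by 0.33 (adjusted p = 0.115). For the probe at 164780212 to 164780271 this difference was 0.45 (adjusted p = 0.0315) and for the one at 164763984 to 164764043 it was 0.47 (adjusted p = 0.0178), both under the fold limit. The dimmest Fmo1 probe, built on the transcript ENSMUST00000193766, passed the background limit on 3 of the 5 arrays of WT PCN mice and on all others. It gave -0.42 in WT mice (adjusted p = 0.0366) and -0.21 in Pxr-/- mice (adjusted p = 0.395), so that the Fmo1 probes did not give the same picture in Pxr-/- mice.

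**Figure D4:**
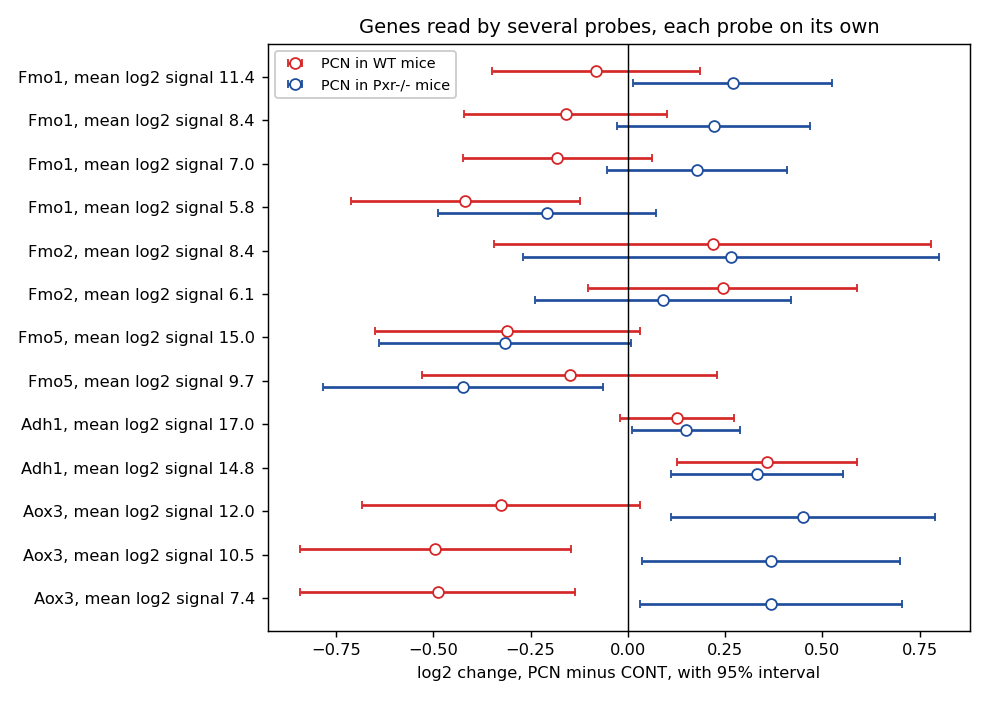
Log2 change with PCN (x axis) in WT (red) and Pxr-/- (blue) mice for each kept probe of the 5 genes read by several probes, with 95% intervals of the limma fit. The labels give each probe's mean log2 signal, and probes of a gene share the same RNA. The 3 Aox3 probes lie on opposite sides of 0 in the genotypes, from -0.33 to -0.49 in WT and from 0.37 to 0.45 in Pxr-/- mice.

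Fmo2, best known from the lung, had the largest SD of the 9 genes in 3 of the 4 groups. Its log2 signals on the brightest probe, at 164806827 to 164806886, were 8.04, 8.35, 8.66, 7.68 and 8.12 in WT PCN mice. They spanned 6.91 to 8.29 in WT CONT, 7.67 to 9.29 in Pxr-/- CONT and 8.13 to 9.24 in Pxr-/- PCN. The low value in WT CONT was replicate 4, which stood far from the others of its group by Dixon's test. Means were higher in the Pxr-/- groups, 8.53 ± 0.55 (SD, n = 6) and 8.80 ± 0.46 (n = 6), than in WT CONT, 7.97 ± 0.52 (n = 6), and WT PCN, 8.17 ± 0.36 (n = 5), and the ranges of the 4 groups overlapped. The Pxr-/- minus WT difference for Fmo2 was 0.56 without PCN (SE 0.26, adjusted p = 0.418) and 0.61 with PCN (SE 0.27, adjusted p = 0.172). The difference without PCN ran from 0.32 to 0.72 with arrays left out in turn. It was 0.17 in washing batch 1 and 0.95 in washing batch 2. PCN gave 0.22 in WT and 0.26 in Pxr-/- mice (adjusted p = 0.613 and 0.603). Within washing batches 1 and 2 the change with PCN was -0.27 and 0.78 in WT, and 0.15 and 0.38 in Pxr-/- mice. A second Fmo2 probe, well above background on 22 arrays, gave 0.41 and 0.25 between genotypes (adjusted p = 0.332 and 0.375). The last 2 of its 4 probes were well above background on 0 and 1 arrays and were set aside.

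Fmo4, a form with few known substrates, was dim, with a median intensity of 50 over all arrays, although its probe at 164738476 to 164738535 was well above background on all 23. The log2 signals were 5.73, 5.46, 5.94, 5.97 and 5.72 in WT PCN mice. They spanned 5.44 to 5.85 in Pxr-/- CONT and 5.39 to 5.70 in Pxr-/- PCN mice, and in WT CONT 5 mice lay at 5.56 to 5.93 while replicate 3 stood at 7.32. The change of Fmo4 with PCN was -0.22 in WT (95% interval -0.65 to 0.21) and -0.07 in Pxr-/- mice (95% interval -0.48 to 0.34). Without that mouse the WT value was 0.06.

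Relatives of these genes, and the enzymes and cofactor-making steps that share molybdenum with Aox3, were counted in the same fit. Of the other epoxide hydrolases 1 of 2 with a probe named for them passed the filter (Ephx3), and of the other aldehyde oxidases 1 of 3 (Aox1), and neither was called in any comparison. An unadjusted p under 0.05 was reached by Aox1 between the genotypes with PCN, and by neither elsewhere. All 9 genes of molybdenum enzymes and cofactor synthesis were measured, among them the xanthine oxidase gene Xdh, and 0 were called in any comparison (4 had an unadjusted p under 0.05 for PCN in WT and 3 in Pxr-/- mice), with a median change of -0.05 in WT and 0.05 in Pxr-/- mice with PCN. Of the other alcohol dehydrogenase genes, 5 of 6 listed had a probe named for them, all 5 passed the filter and 1 was called. Adh6-ps1, a pseudogene of the alcohol dehydrogenase cluster, fell with PCN in WT mice by 0.98 on the log2 scale (SE 0.24, adjusted p = 0.00529). In Pxr-/- mice it gave -0.60 (adjusted p = 0.123), and its interaction was -0.38 (adjusted p = 0.655). Whether its probe also reads functional relatives was not tested.

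For each gene called in WT mice, the most alike genes over the 23 arrays were taken from 15098 other genes with a RefSeq symbol, by the root mean square difference of log2 signals after each gene's mean was subtracted. For Ephx1 these were Creg1, Srxn1 and Tomm5, at 0.17 to 0.18. Creg1, the closest, gave 0.36 with PCN in WT and 0.01 in Pxr-/- mice. Srxn1, which encodes sulfiredoxin, an enzyme that repairs oxidised peroxiredoxins, gave 0.61 with PCN in WT and -0.16 in Pxr-/- mice. For Ephx2 they were Gm20319, Hsd17b4 and Cd59a, at 0.14 to 0.15. Gm20319, the closest, gave -0.67 in WT and -0.31 in Pxr-/- mice. Hsd17b4, which encodes the bifunctional enzyme of peroxisomal fatty acid oxidation, gave -0.41 in WT and -0.10 in Pxr-/- mice. For Adh4 they were Mmd, Gpr137 and Pithd1, at 0.19 to 0.21, and Mmd gave -0.74 in WT and -0.16 in Pxr-/- mice. This likeness is a description, and the arrays share groups and batches.

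The 3 changes called in WT mice lay near the limit of 1.5-fold, so the choice of scaling set whether some of them were called, while the sign of each was the same throughout. With each array scaled to its 75th percentile, on the processed or on the median signal, Ephx1 gave 0.70 and 0.67, Adh4 -0.69 and -0.69, and Ephx2 -0.53 and -0.54, the latter under the fold limit. The deposited values gave 0.83 for Ephx1, and with them the median change of all genes in WT mice was 0.12 in place of -0.02. In them 1387 genes were called higher and 259 lower with PCN in WT mice, against 798 and 504 in the values used here. With slide in place of washing batch, Ephx1 was 0.57 (adjusted p = 0.003), just under the limit.

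**Figure D5:**
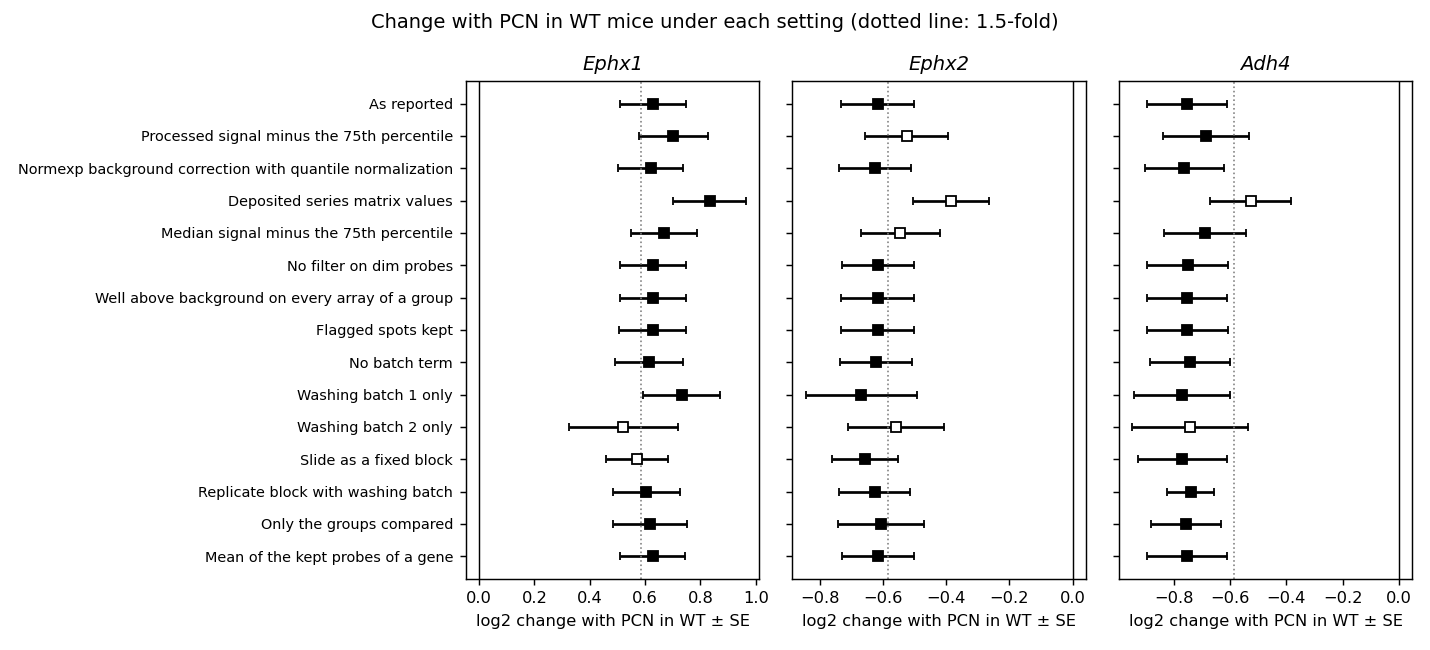
Log2 change with PCN in WT mice (x axis, with SE) of Ephx1, Ephx2 and Adh4 under the reported setting and 14 other ways of processing (rows). Filled squares passed the test and the dotted line marks 1.5-fold. Each gene keeps its side of 0 in all rows, from 0.52 to 0.83 for Ephx1, from -0.67 to -0.38 for Ephx2 and from -0.77 to -0.53 for Adh4.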

How the data were processed

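The authors hybridised Cy3-labelled liver RNA to Agilent mouse 8x60K arrays and, per the file headers, deposited Feature Extraction 10.10.1.1 output, in which each spot has a linear intensity, with no normalization across arrays. They also deposited log2 values for 32574 probes, which according to the methods were filtered, corrected for washing batch and normalized with CrossNorm; these covered 17 of the 20 member probes. Groups, replicate numbers and washing batch came from the labels, and slides (8) from the file headers. Every group had 3 arrays per washing batch, except WT PCN with 2 in the second.

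From the scanner files, spots with an outlier flag were set to missing, log2 median signals of 1 probe were averaged, and 32087 probes were kept that exceeded the scanner's background limit in at least 1 group on over 50% of its arrays. Values were quantile normalized and fitted with limma 3.58.1 in R 4.3.3, with a term per group and for washing batch (18 residual degrees of freedom). P-values were adjusted over all kept probes with the Benjamini-Hochberg procedure. Because of the batch term, fitted changes can differ slightly from differences of means. The fit was tested on simulated data with planted changes larger than those of the members, and with no batch effect or outlying mice. That test therefore does not bear on calls near the fold limit. The number of arrays limits the precision. Members and gene lists were chosen with earlier results of these data known. All members are named, together with every called gene of the family and cofactor lists, 3 genes as a check of the labels, and the 3 genes most like each member called in WT mice. The result of 1 further gene list is not reported here. Alternatives covered signal, background correction, scaling, filter, flags, batch, slide, replicate block, samples in the fit and probes per gene, and each array was left out in turn. Probe coordinates are mm9, for which no gene annotation was used here, so exon or UTR position is not given. Promoters are those of the RefSeq table of GRCm38.p6.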

Additional observations from a re-analysis of the deposited data

Results flagged for a closer look

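In 7 of 36 sets of values (9 genes in 4 groups), 1 mouse stood far from the others of its group by Dixon's test, which flags about 1 in 20 sets by chance. The sets share arrays and some mice recur, so the sets are not independent and this count is not a test against that rate. Of these sets 4 were of WT CONT mice. Replicate 2 was high for Fmo5, at a log2 signal of 15.79 where the others lay at 14.69 to 15.01, and low for Adh4, at 13.94 where the others lay at 14.44 to 14.67. Replicate 3 was high for Fmo4, at 7.32 against 5.56 to 5.93, and replicate 4 was low for Fmo2, at 6.91 against 8.09 to 8.29. In WT PCN mice, replicate 4 was low for Fmo5, at 14.51 against 14.70 to 14.76. In Pxr-/- PCN mice, replicate 1 was low for Fmo1, at 11.05 against 11.63 to 11.85, and for Adh1, at 16.83 against 17.10 to 17.25.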

How the results depend on the processing

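Under 14 other settings and with each of the 23 arrays left out, 1634 of 1656 recomputed changes of the members kept their side of the threshold, 14 were no longer called and 8 were newly called. No called change turned its sign, and 66 values called in neither setting did. The count of members called in WT mice with PCN was 3, and fell to 1 with the deposited values and to 0 in washing batch 2 alone. In that batch the limma adjusted p was above 0.05 for all 3 genes. Ephx1 (0.52) and Ephx2 (-0.56) also lay under the fold limit there, and Adh4 (-0.74) did not. The count ranged from 1 to 3 with arrays left out, with 1 without WT PCN replicate 4. In Pxr-/- mice the count was 0, and 0 to 1 with arrays left out (1 without Pxr-/- CONT replicate 4). Between the genotypes with PCN it was 1 and fell to 0 in washing batch 2 alone, and without PCN it was 0 throughout. The interaction count was 0 and rose to 1 with the processed signal scaled to the 75th percentile, with the median signal so scaled and with the deposited values. In each case the gene was Ephx1 (0.73, 0.68 and 0.79, limma adjusted p = 0.0307, 0.0405 and 0.0292). With arrays left out it ranged from 0 to 1.

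The replicate numbers were not taken to pair the mice, since the labels give them no meaning. Whether same-numbered mice shared a litter, day or handling was not tested. The correlations of same-numbered arrays ran from -0.09 to 0.49. Their medians were 0.07 to 0.23 in the 4 pairs of groups, against medians below 0 for unlike numbers. In 14 of 44 comparisons an array correlated best with its own number. Between WT CONT and Pxr-/- CONT this held for 7 of 12. Each array was set against the 5 or 6 arrays of the other group, and no level by chance was computed for these counts. With the replicate block and washing batch, Ephx1 (0.60), Ephx2 (-0.63) and Adh4 (-0.74) stayed called in WT mice, the count was 3, and no call of a member changed. For Adh4 the SE in WT mice was 0.08 with the block, and the Pxr-/- change (-0.33) had an adjusted p of 0.0178, under the fold limit. In the deposited values the median of all genes was 0.12 for PCN in WT mice, 0.03 in Pxr-/- mice, -0.11 between the genotypes without PCN and -0.19 with PCN, where 55 genes were called higher and 1040 lower, against 154 and 287 in the values used here. Between the genotypes without PCN they gave 27 higher and 33 lower, against 48 and 17. The cause was not tested.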

Other observations

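Adh4 was lowest in replicate 2 of each of the 4 groups, at 13.94 in WT CONT, 13.44 in WT PCN, 13.70 in Pxr-/- CONT and 13.43 in Pxr-/- PCN mice. The next values were 14.44, 13.64, 14.09 and 13.70. These 4 arrays lay on 4 different slides, 3 of them in washing batch 2 and 1 in washing batch 1, and the labels do not say that a replicate number marks a shared litter or day. Of the 9 genes, Adh4 was the only one with the same lowest replicate in all 4 groups, and none had the same highest replicate in all 4. The pattern was noticed in the values and no test was run on it.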
